A study of Homo sapiens with 6 samples.

Results

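Collagens are the rod-like proteins of the extracellular matrix, each built from 3 polypeptide chains, and every chain is the product of its own gene. The genes described here are the protein-coding genes whose symbol reads COL, a number, A and a number, which is how collagen chains are named. The rule found 44 genes among the 19951 protein-coding genes and 58735 genes of the table, on 17 chromosomes, and it used no measured value. By class they were 11 chains of the fibrillar collagens, 6 of the basement membrane collagen IV, 4 of the transmembrane collagens, 2 multiplexins, 1 chain of the anchoring fibril, 5 of the beaded filament collagen VI, 3 network-forming chains, 10 FACITs (fibril-associated collagens with interrupted triple helices) and 2 others.

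The mRNA of wild strain TPC-1 (3 libraries) was compared with that of *RRM2*-OE-TPC-1 (3 libraries). TPC-1 is a human cell line from a papillary thyroid carcinoma, and *RRM2* encodes the regulatory subunit of ribonucleotide reductase, the enzyme that makes deoxynucleotides. *RRM2*-OE-TPC-1 cells were the same line after infection with the lentivirus LV18, which carries the full-length *RRM2* under a CMV promoter together with a puromycin resistance gene. Both kinds of cell grew in the same medium with fetal bovine serum, and the study describes 3 biological replicates. Neither virus nor puromycin is described for the wild strain, no empty-vector library was analysed here, and the sources do not say whether the infected cells were a pool or a clone, so that infection and selection cannot be told apart from *RRM2* itself. The genotype field of *RRM2*-OE-TPC-1 replicates 2 and 3 reads RRM3 and RRM4, whereas their titles read *RRM2*.

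Fibrillar collagens such as types I, III and V form the banded fibrils of connective tissue. Collagen IV forms the sheet-like network of basement membranes, on which thyroid follicles and other epithelia rest, and collagen VI forms beaded filaments between that sheet and the fibrils. Transmembrane collagens stay in the cell membrane as adhesion proteins, and FACITs sit on the surface of fibrils.

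Levels are given as FPKM, that is fragments scaled by gene length and by the depth of the library, and differences as the log2 fold change of FPKM + 0.1 in *RRM2*-OE-TPC-1 relative to wild strain TPC-1. Tests are limma across 13621 genes with at least 0.5 FPKM and 10 reads in 3 libraries, with Benjamini-Hochberg adjustment. A gene is said to rise or fall where its adjusted p is no higher than 0.05, and to be called if its log2 fold change is also at least 1 in size. Each library held 14317091 to 17084067 reads on genes. *RRM2* stood at 9.17, 9.05 and 8.52 FPKM in the wild strain and at 50.4, 47.5 and 47.2 in *RRM2*-OE-TPC-1 (log2 fold change 2.43). Of the thyroid markers reported here, *PAX8* (69.3 and 58.5 FPKM) and *FOXE1* (4.30 and 3.19) were present in both groups, whereas *TG*, *TSHR* and *SLC5A5* averaged at most 0.0841 FPKM and *NKX2-1* had 0 reads. The leukocyte list summed to at most 0.0355 FPKM in a library.

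Collagen mRNA was a small share of each library, between 0.250% and 0.270% of reads, and the summed levels of the groups overlapped on the authors' scale. The 44 genes together reached 279.5, 271.0 and 278.5 FPKM in the wild strain and 276.4, 276.1 and 272.2 in *RRM2*-OE-TPC-1. With library totals as the scale the sums did not overlap, at 288, 284 and 293 in the wild strain and 279, 277 and 271 in *RRM2*-OE-TPC-1. The composition behind that sum differed: the summed fibrillar chains and the summed FACITs were lower in all 3 *RRM2*-OE-TPC-1 libraries, and the summed chains of collagen IV were higher. In bulk RNA, fewer cells of a kind and less RNA per cell cannot be told apart. Among single chains, *COL9A2* was the one called, 1 of 18 tested, where 11.5% of all genes tested were called. It was 12.2-fold lower in *RRM2*-OE-TPC-1 by the ratio of means. *COL9A2* passed the minimum through wild strain libraries alone, so that a fall was set by the filter.

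Of the 44 genes, 18 passed the minimum and were tested. Of these, 17 passed the adjusted p from limma, as 67.6% of all genes tested did, 7 of them higher (34.9% of all genes tested) and 10 lower (32.7% of all genes tested). Only *COL9A2* was called, 1 of 18, where 11.5% of all genes tested were called, 4.48% higher and 6.97% lower. The groups did not overlap for any of the 18 genes, which held for 72.2% of all genes tested. The median log2 fold change of the 18 genes was −0.21 and that of all genes 0.01, and the median size of the change was 0.39 and 0.37, respectively. *COL9A2* passed the minimum in wild strain libraries alone and *COL5A2* in *RRM2*-OE-TPC-1 libraries alone, so that both had to differ. Among the other 16 genes, 6 rose, 9 fell, and 0 were called.

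**Figure D1:**
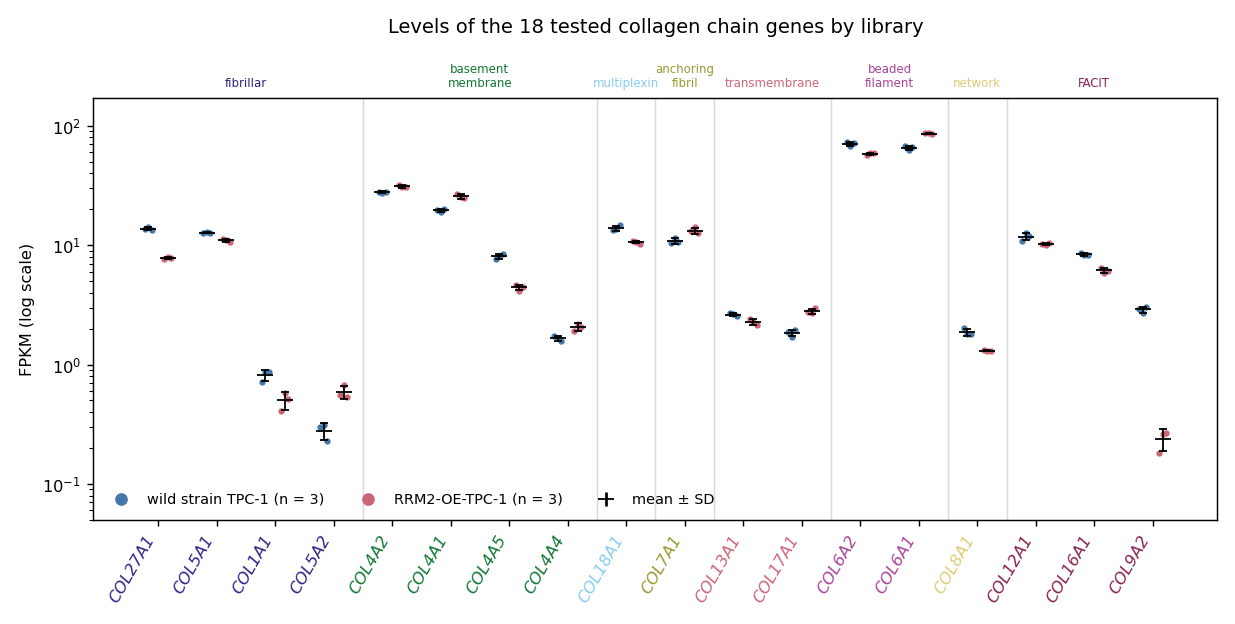
FPKM of the 18 tested collagen chain genes on a log axis, grouped by class, with 1 point per library (3 of wild strain TPC-1 in blue, 3 of *RRM2*-OE-TPC-1 in red) and bars for mean ± SD. *COL6A1* and *COL6A2* lie highest in both groups, and *COL9A2* shows the widest gap, from a mean of 2.89 to 0.237 FPKM.

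On the per-length scale of FPKM the order of the chains was led in both groups by collagen VI and collagen IV. *COL6A1*, *COL6A2*, *COL4A1* and *COL4A2* together made up 66.4% of the summed collagen FPKM in the wild strain and 73.0% in *RRM2*-OE-TPC-1. In the wild strain *COL6A2* and *COL6A1* overlapped at the top, *COL4A2* and *COL4A1* followed without overlap, and *COL18A1* and *COL27A1* overlapped at positions 5 and 6. In *RRM2*-OE-TPC-1, *COL6A1* stood above *COL6A2* without overlap, and *COL5A1*, *COL18A1* and *COL12A1* each overlapped with the next at positions 6 to 8. *COL7A1* stood at position 9 in the wild strain and 5 in *RRM2*-OE-TPC-1, *COL27A1* at 6 and 9, and *COL9A2* at 12 and 19.

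The regulatory sequences of 5 loci are shown to go with the values: the shared start region of *COL4A1* and *COL4A2*, whose mRNAs rose together, the start regions of *COL4A3* and *COL4A5*, which each face a divergent collagen IV gene, that of *COL6A2*, which fell while *COL6A1* rose, and that of *COL9A2*, the 1 chain called. They were read from RefSeq promoter windows on GRCh38.p14, which exist here for 32 of the 44 genes. The first is the stretch between the RefSeq starts of *COL4A1* and *COL4A2*, chr13:110307158-110307283 on the plus strand. The others are the 250 bases before the RefSeq start, at chr2:227164374-227164623 (plus strand) for *COL4A3*, chrX:108439588-108439837 (plus strand) for *COL4A5*, chr21:46097862-46098111 (plus strand) for *COL6A2* and chr1:40317287-40317536 (minus strand) for *COL9A2*. Capitals mark CCAAT boxes (CCAAT, or ATTGG on the other strand), GC boxes (GGGCGG, or CCGCCC) and TATA motifs (TATAAA, or TTTATA).
COL4A1-COL4A2: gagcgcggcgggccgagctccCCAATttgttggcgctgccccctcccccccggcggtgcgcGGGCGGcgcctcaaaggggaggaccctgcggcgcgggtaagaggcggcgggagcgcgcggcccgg
COL4A3: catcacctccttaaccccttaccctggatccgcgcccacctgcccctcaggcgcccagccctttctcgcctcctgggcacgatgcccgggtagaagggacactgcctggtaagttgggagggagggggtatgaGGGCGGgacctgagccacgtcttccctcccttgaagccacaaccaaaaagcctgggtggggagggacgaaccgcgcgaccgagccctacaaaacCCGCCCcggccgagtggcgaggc
COL4A5: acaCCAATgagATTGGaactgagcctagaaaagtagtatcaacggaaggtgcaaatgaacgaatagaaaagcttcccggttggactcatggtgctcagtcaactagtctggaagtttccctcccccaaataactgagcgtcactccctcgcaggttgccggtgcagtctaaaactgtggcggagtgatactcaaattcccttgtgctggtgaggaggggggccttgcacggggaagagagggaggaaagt
COL6A2: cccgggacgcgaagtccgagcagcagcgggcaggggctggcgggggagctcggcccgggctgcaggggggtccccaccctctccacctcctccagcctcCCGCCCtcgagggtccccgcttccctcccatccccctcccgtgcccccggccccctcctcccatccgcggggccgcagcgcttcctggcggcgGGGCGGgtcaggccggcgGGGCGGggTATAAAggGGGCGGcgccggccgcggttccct
COL9A2: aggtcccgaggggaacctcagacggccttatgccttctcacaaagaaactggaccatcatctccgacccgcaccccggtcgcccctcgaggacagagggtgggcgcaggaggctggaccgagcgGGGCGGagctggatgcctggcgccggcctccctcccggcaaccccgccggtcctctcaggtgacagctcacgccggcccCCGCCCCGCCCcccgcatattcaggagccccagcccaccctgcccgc

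The collagen IV genes lie in divergent pairs, each sharing a start region, on chromosomes 13, 2 and X. The stretch between the *COL4A1* and *COL4A2* starts was 126 bases long and 80.2% G and C, with 1 CCAAT box and 1 GC box. In windows of that length, 21.1% of 35116 promoters hold a CCAAT box and 34.6% a GC box. The *COL4A3* window had 2 GC boxes and no CCAAT box, the *COL4A5* window 2 CCAAT boxes and no GC box, the *COL6A2* window 4 GC boxes and no CCAAT box, and the *COL9A2* window 3 GC boxes, of which a pair overlap. The *COL6A2* window had 1 TATA motif, and the other 4 stretches had 0. Over 250 bases, CCAAT boxes were found in 34.4% of the 32 collagen genes and 32.0% of all promoters, GC boxes in 65.6% and 42.6%, and TATA motifs in 21.9% and 10.7%. A collagen gene was counted if any of its windows held the motif, whereas the share of all promoters is per window. The shares of genes and of promoters are therefore not like for like. A match gives the letters alone and says nothing of a factor bound there. The gene model of *COL9A2* in the table, chr1:40300487-40317813 on the minus strand, starts upstream of this RefSeq start, so that the window lies within it. The stretch between *COL4A1* and *COL4A2* lies within the gene model of *COL4A2* and partly within that of *COL4A1*. The *COL4A3* window lies partly within the models of *COL4A3* and *COL4A4*, and the end of the *COL6A2* window within that of *COL6A2*.

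Fibrillar chains as a class were lower in *RRM2*-OE-TPC-1, mainly through *COL27A1*. The 11 genes summed to 27.9, 28.8 and 27.6 FPKM in the wild strain and to 20.1, 20.6 and 19.8 in *RRM2*-OE-TPC-1, without overlap. This took the class from 10.2% to 7.33% of the summed collagen FPKM. Of the 4 tested chains 3 fell and 1 rose, with a median log2 fold change of −0.41, and 0 were called.

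*COL27A1* (chr9:114155560-114312511, plus strand) encodes the chain of collagen XXVII, a fibrillar collagen of cartilage. It stood at 13.7, 14.1 and 13.3 FPKM in the wild strain and at 7.63, 7.95 and 7.79 in *RRM2*-OE-TPC-1. All *RRM2*-OE-TPC-1 libraries lay far below the lowest wild strain library, and the gene fell by 0.81 on the log2 scale (SE 0.04, n = 3 per group, adjusted p = 1.65e-06 from limma).

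Collagen V starts and narrows the fibrils of collagen I, and of its chains *COL5A1* fell while *COL5A2* was higher. *COL5A1* had 12.7, 12.8 and 12.7 FPKM in the wild strain and 11.3, 11.0 and 10.6 in *RRM2*-OE-TPC-1, a log2 fold change of −0.21 (SE 0.04, adjusted p = 0.00214 from limma). *COL5A2* was far lower, with 0.297, 0.311 and 0.227 FPKM in the wild strain and 0.557, 0.674 and 0.539 in *RRM2*-OE-TPC-1. These values rest on 103 reads in the wild strain and 210 in *RRM2*-OE-TPC-1, and the log2 fold change was 0.87 (SE 0.19, 95% interval 0.42 to 1.32, adjusted p = 0.00434 from limma). With a pseudocount of 0.01 (log2 fold change 1.06), or with voom on recovered reads, *COL5A2* was called, and with a pseudocount of 1 the value was 0.31. The ratio of *COL5A1* to *COL5A2* was 46.5 ± 7.98 in the wild strain (SD over 3 libraries) and 18.8 ± 2.10 in *RRM2*-OE-TPC-1. *COL5A2* passed the minimum through *RRM2*-OE-TPC-1 libraries alone, so that a rise was set by the filter. Its adjusted p, and its direction and ratio against *COL5A1*, are therefore a description.

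*COL1A1* encodes the main chain of collagen I, the chief collagen of bone, skin and tendon. It was low in both groups, at 0.720, 0.866 and 0.863 FPKM in the wild strain and 0.409, 0.577 and 0.518 in *RRM2*-OE-TPC-1. It fell by 0.61 on the log2 scale (SE 0.17, adjusted p = 0.0129 from limma), and with no filter on low values it did not pass (adjusted p = 0.0771 from limma). With a pseudocount of 1 the value was −0.28. Its partner chain *COL1A2* had 0 reads in all 6 libraries, as had *COL3A1* and *COL5A3*. *COL6A5*, *COL19A1* and *COL22A1* also had 0 reads, and for these 6 genes a count of 0 allows at most 0.0307 FPKM in any library (3 reads, counting error only).

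The other fibrillar chains, several of them known from cartilage, were under the minimum. *COL11A2* had 28, 58 and 38 reads in the wild strain and 9, 21 and 18 in *RRM2*-OE-TPC-1, and *COL24A1* 35, 27 and 25 reads and 11, 23 and 27. *COL2A1*, the defining collagen of cartilage, had 2 reads in all and *COL11A1* had 3.

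In the basement membrane class, 3 of the 4 tested collagen IV chains rose and 1 fell, with a median log2 fold change of 0.23. The 6 genes summed to 57.7, 56.5 and 58.5 FPKM in the wild strain and to 65.6, 62.6 and 62.2 in *RRM2*-OE-TPC-1. The groups did not overlap, and the share of the summed collagen FPKM went from 20.8% to 23.1%.

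*COL4A1* and *COL4A2* encode the chains found together in nearly every basement membrane. *COL4A1* (chr13:110148963-110307233, minus strand) stood at 19.9, 18.9 and 19.96 FPKM in the wild strain and at 26.9, 25.1 and 24.9 in *RRM2*-OE-TPC-1. *COL4A2* (chr13:110305812-110513209, plus strand) stood at 27.9, 27.3 and 28.0 FPKM and at 31.7, 30.8 and 30.4. Both genes were higher in every *RRM2*-OE-TPC-1 library than in any wild strain library, *COL4A1* by 0.39 (SE 0.04, adjusted p = 9.19e-05 from limma) and *COL4A2* by 0.16 (SE 0.03, adjusted p = 0.00278 from limma) on the log2 scale. With library totals as the scale the value of *COL4A2* was 0.10, and it still passed. Their ratio, *COL4A1* to *COL4A2*, was 0.706 ± 0.0107 in the wild strain and 0.828 ± 0.0200 in *RRM2*-OE-TPC-1. The annotated starts of the pair lie 1421 bases apart, and the gene models overlap there on opposite strands. The annotated exons of *COL4A1* and *COL4A2* do not overlap, and whether the counting used strand is not stated.

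*COL4A3*, *COL4A4* and *COL4A5* encode the chains of the collagen IV of kidney glomeruli and other specialised basement membranes. Of these, *COL4A4* rose as the first pair did, *COL4A5* fell and *COL4A3* was not tested. *COL4A5* (chrX:108439844-108697545, plus strand) had 7.68, 8.09 and 8.504 FPKM in the wild strain and 4.62, 4.15 and 4.50 in *RRM2*-OE-TPC-1. It fell by 0.86 on the log2 scale (SE 0.06, adjusted p = 9.36e-06 from limma), the largest fall after *COL9A2* among the 18 tested chains. The ratio of *COL4A1* to *COL4A5* was 2.42 ± 0.140 in the wild strain and 5.81 ± 0.251 in *RRM2*-OE-TPC-1. As *COL4A1* rose and *COL4A5* fell, that ratio had to differ and restates the values of the single chains. Its divergent neighbour *COL4A6*, whose annotated start is 347 bases away, had 9, 11 and 7 reads in the wild strain and 11, 6 and 5 in *RRM2*-OE-TPC-1, with overlap.

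*COL4A4* and *COL4A3* start 112 bases apart in the annotation and point away from each other. *COL4A4* (chr2:227002711-227164453, minus strand) had 1.73, 1.66 and 1.57 FPKM in the wild strain and 1.90, 2.20 and 2.08 in *RRM2*-OE-TPC-1. It rose by 0.30 on the log2 scale (SE 0.10, adjusted p = 0.0242 from limma), and it no longer passed without wild strain replicate 2 or 3 and without *RRM2*-OE-TPC-1 replicate 2 or 3, with adjusted p of 0.0519, 0.0737, 0.0860 and 0.0630 from limma, and with no filter on low values (adjusted p = 0.0582 from limma). *COL4A3* was under the minimum, with 67, 79 and 62 reads in the wild strain and 50, 53 and 29 in *RRM2*-OE-TPC-1, and its exons share 120 bases with the antisense gene AC097662.1 (0.202 FPKM), so that its level is uncertain. The ratio of *COL4A4* to *COL4A3* was 3.93, 3.22 and 3.68 in the wild strain and 5.00, 6.49 and 10.4 in *RRM2*-OE-TPC-1, without overlap. The ratio of *COL4A5* to *COL4A4* was 4.91 ± 0.491 and 2.16 ± 0.276. In both ratios the single chains already lay apart in opposite directions, so that the ratios restate those values.

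**Figure D2:**
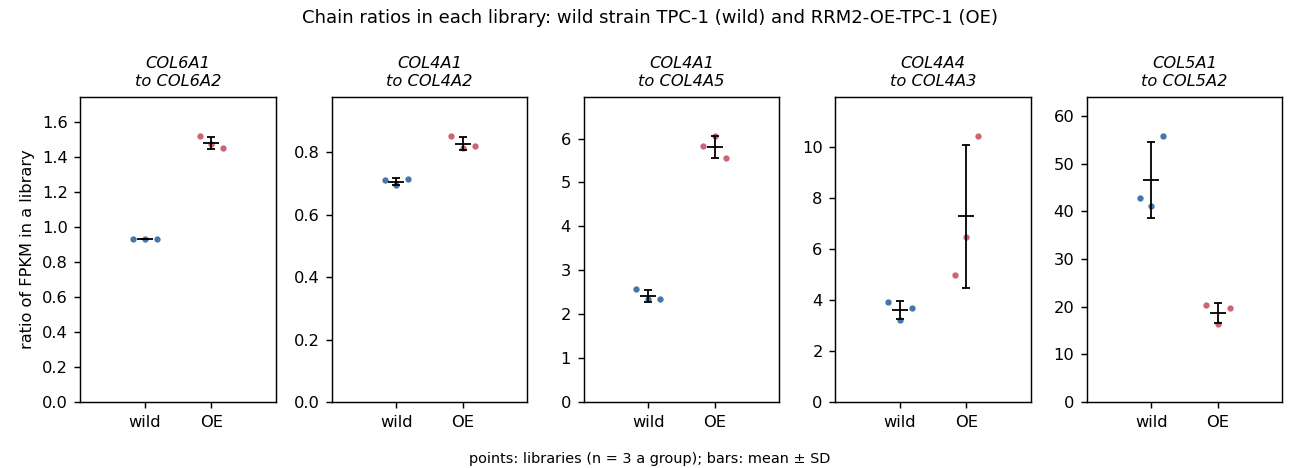
Ratio of FPKM within each library for 5 of the 7 chain pairs computed, 1 panel per ratio with its own axis from 0, with points for the 3 libraries of wild strain TPC-1 (blue) and of *RRM2*-OE-TPC-1 (red) and bars for mean ± SD. The groups do not overlap in any of the 5 panels, as was the case for 72.2% of all single genes tested. *COL6A1* to *COL6A2* goes from a mean of 0.930 to 1.48. Of the pairs not shown, *COL6A1* to *COL6A3* overlaps and *COL4A5* to *COL4A4* does not. *COL5A2* passed the minimum in *RRM2*-OE-TPC-1 libraries alone, and *COL4A3* was not tested.

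Transmembrane collagens were low, and 1 of the 2 tested chains rose. The 4 genes summed to 4.55, 4.34 and 4.50 FPKM in the wild strain and to 5.18, 5.00 and 5.13 in *RRM2*-OE-TPC-1. *COL17A1* encodes the collagen of hemidesmosomes, the junctions that fasten epithelial cells to the basement membrane. It had 1.87, 1.71 and 1.94 FPKM in the wild strain and 2.74, 2.71 and 2.96 in *RRM2*-OE-TPC-1, and it rose by 0.58 on the log2 scale (SE 0.09, adjusted p = 4.79e-04 from limma).

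*COL13A1*, a transmembrane collagen of cell-matrix adhesions, had 2.68, 2.64 and 2.53 FPKM in the wild strain and 2.39, 2.26 and 2.14 in *RRM2*-OE-TPC-1. The groups did not overlap, but it was the 1 tested chain that did not pass (log2 fold change −0.20, 95% interval −0.38 to −0.02, adjusted p = 0.0541 from limma). It passed with library totals as the scale (0.0223), a filter on the mean (0.0497), voom (0.0482) and protein-coding genes alone (0.0406), all as adjusted p from limma. The transmembrane chains *COL23A1* and *COL25A1* had 5 and 9 reads in all.

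*COL7A1*, the anchoring fibril chain, ties the basement membrane to the matrix beneath it. It had 10.4, 11.6 and 10.6 FPKM in the wild strain and 13.1, 14.1 and 12.6 in *RRM2*-OE-TPC-1, and it rose by 0.28 on the log2 scale (SE 0.06, adjusted p = 0.00301 from limma).

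The multiplexins sit in and near basement membranes. *COL18A1*, the source of endostatin, had 13.5, 13.5 and 14.7 FPKM in the wild strain and 10.7, 10.7 and 10.3 in *RRM2*-OE-TPC-1. It fell by 0.39 on the log2 scale (SE 0.05, adjusted p = 1.53e-04 from limma), but its exons overlap those of *SLC19A1* on the opposite strand by 1401 bases, and that gene averaged 4.43 FPKM. Without stated strand the reads in that stretch cannot be told apart. *COL15A1* was at the edge of detection, with 3, 1 and 1 reads in the wild strain and 9, 20 and 15 in *RRM2*-OE-TPC-1. With no filter on low values, which tested 38 of the chains and called 7.37% of all genes, 2 chains were called, *COL9A2* and *COL15A1* (log2 fold change 1.03, adjusted p = 0.0177 from limma).

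In collagen VI the order of the main chains was reversed between the groups. *COL6A1* (chr21:45981737-46005050, plus strand) had 67.9, 62.7 and 66.2 FPKM in the wild strain and 86.3, 86.5 and 85.0 in *RRM2*-OE-TPC-1. *COL6A2* (chr21:46098097-46132849, plus strand), whose start lies 116360 bases downstream of that of *COL6A1*, had 73.0, 67.5 and 71.0 FPKM and 57.0, 58.7 and 58.7. *COL6A1* rose by 0.39 on the log2 scale (SE 0.04, adjusted p = 3.31e-05 from limma) and *COL6A2* fell by 0.28 (SE 0.04, adjusted p = 2.70e-04 from limma). The ratio of *COL6A1* to *COL6A2* was 0.929, 0.929 and 0.932 in the wild strain and 1.51, 1.47 and 1.45 in *RRM2*-OE-TPC-1. *COL6A2* was thus the higher chain in every wild strain library and *COL6A1* in every *RRM2*-OE-TPC-1 library, a ratio within each library that no scaling of libraries can move.

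The chain that completes the usual collagen VI monomer, *COL6A3*, was nearly absent. It had 13, 4 and 9 reads in the wild strain and 10, 22 and 17 in *RRM2*-OE-TPC-1, at most 0.0654 FPKM, and the groups overlapped, as did the ratio of *COL6A1* to *COL6A3*. *COL6A6*, a chain that can take its place, had 8 reads in all. The 5 beaded filament genes summed to 136 ± 5.39 FPKM in the wild strain and 144 ± 1.00 in *RRM2*-OE-TPC-1 (each ± SD of 3 libraries), 49.3% and 52.4% of the summed collagen FPKM.

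All 3 tested FACITs fell. *COL9A2* (chr1:40300487-40317813, minus strand) encodes a chain of collagen IX, which coats the collagen II fibrils of cartilage. It had 2.90, 2.72 and 3.05 FPKM in the wild strain and 0.180, 0.263 and 0.268 in *RRM2*-OE-TPC-1, from 204, 193 and 205 reads and 11, 19 and 18 reads. The log2 fold change was −3.16 (SE 0.15, 95% interval −3.51 to −2.81, adjusted p = 9.55e-07 from limma), and leaving out any single library gave −3.23 to −3.03. With a pseudocount of 1 it was −1.65, still called. Its log2 fold change was lower than all but 0.206% of the genes tested. *COL9A2* passed the minimum through wild strain libraries alone, so that a fall was set by the filter. Its adjusted p, call and rank are therefore a description. The other chains of collagen IX had few reads, 4 in all for *COL9A1* and 18 for *COL9A3*, and *COL2A1*, with which collagen IX associates, had 2.

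*COL12A1* and *COL16A1*, FACITs of many connective tissues, fell less. *COL12A1* had 10.9, 12.5 and 11.9 FPKM in the wild strain and 10.2, 9.97 and 10.4 in *RRM2*-OE-TPC-1 (log2 fold change −0.20, SE 0.06, adjusted p = 0.0124 from limma). *COL16A1* had 8.57, 8.26 and 8.25 FPKM and 6.45, 5.88 and 6.12 (log2 fold change −0.44, SE 0.05, adjusted p = 1.37e-04 from limma). The groups did not overlap for either gene, and the 10 FACIT genes summed to 23.2 ± 0.633 FPKM in the wild strain and 16.7 ± 0.432 in *RRM2*-OE-TPC-1. Of the untested FACITs, *COL14A1* had 13, 25 and 16 reads in the wild strain and 5, 2 and 8 in *RRM2*-OE-TPC-1, and *COL20A1* and *COL21A1* had 5 each in all.

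Among the network-forming chains, *COL8A1*, a collagen of vessel walls and of the cornea, had 2.01, 1.79 and 1.81 FPKM in the wild strain and 1.32, 1.31 and 1.30 in *RRM2*-OE-TPC-1. It fell by 0.48 on the log2 scale (SE 0.10, adjusted p = 0.00246 from limma), and the value was −0.31 with a pseudocount of 1. Its partner *COL8A2* had 5, 21 and 13 reads in the wild strain and 3, 4 and 2 in *RRM2*-OE-TPC-1. *COL10A1*, a marker of hypertrophic cartilage, had 10 reads in a single *RRM2*-OE-TPC-1 library and 8 in a single wild strain library, and 1 in each of the others. The 2 remaining genes, *COL26A1* and *COL28A1*, had 1 and 5 reads in all.

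**Figure D3:**
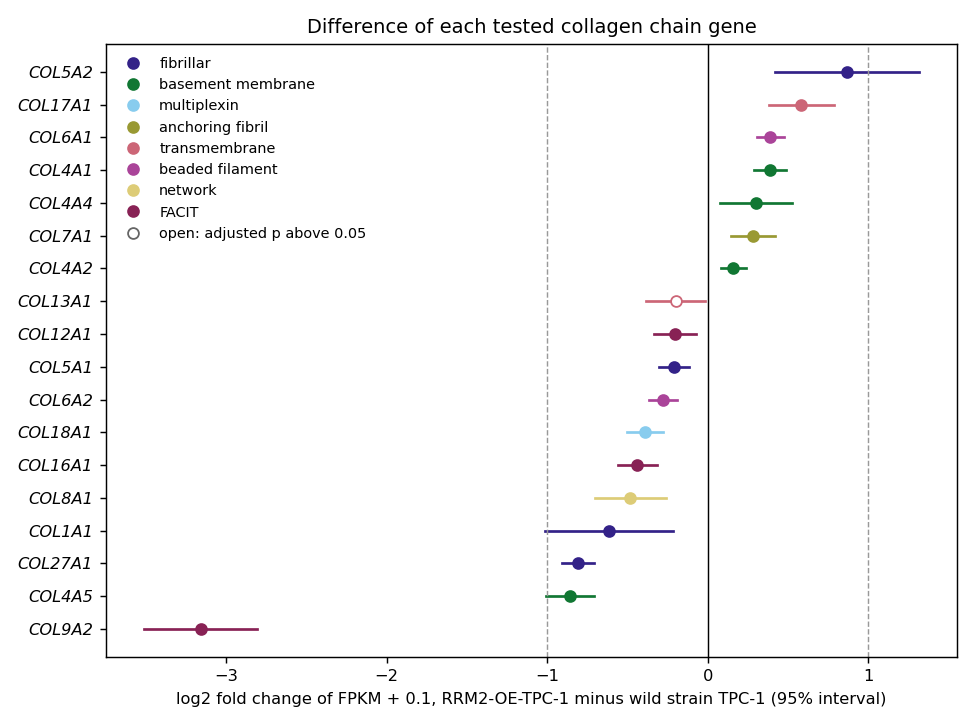
Log2 fold change of FPKM + 0.1 (*RRM2*-OE-TPC-1 minus wild strain TPC-1, 3 libraries each) for the 18 tested collagen chain genes, with 95% intervals from limma and colours by class. Dashed lines mark a log2 fold change of 1 in either direction, the open point is *COL13A1*, which did not pass the adjusted p, and *COL9A2* at −3.16 is the 1 gene beyond the lines.

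Set side by side, the classes differed in direction. The fibrillar, FACIT, network and multiplexin sums were lower in all 3 *RRM2*-OE-TPC-1 libraries than in any wild strain library, and the collagen IV, transmembrane, anchoring fibril and beaded filament sums were higher. With library totals as the scale this held for all of them but the beaded filament sum, whose groups then overlapped (145, 137 and 145 in the wild strain, 145, 146 and 143 in *RRM2*-OE-TPC-1). Groups without overlap were also seen for 72.2% of all single genes tested. The multiplexin sum was nearly all *COL18A1*, with its overlap with *SLC19A1*, the network sum was mostly *COL8A1*, and the anchoring fibril class is 1 gene. The median log2 fold change of tested chains was −0.41 for the fibrillar class, 0.23 for collagen IV and 0.19 for the transmembrane class, each over 4 genes or fewer and so a description with no test. Among the classes with more than 1 tested chain the FACITs alone moved in a single direction, since *COL5A2* rose among the fibrillar chains, *COL4A5* fell among those of collagen IV, *COL6A1* and *COL6A2* moved apart and *COL13A1* did not pass. The contrast with the fibrillar class rests on *COL5A2*, which, like *COL9A2*, passed the minimum in 1 group alone and so had to differ. Without *COL5A2* and *COL9A2*, the tested chains of the fibrillar class and of the FACITs all fell.

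**Figure D4:**
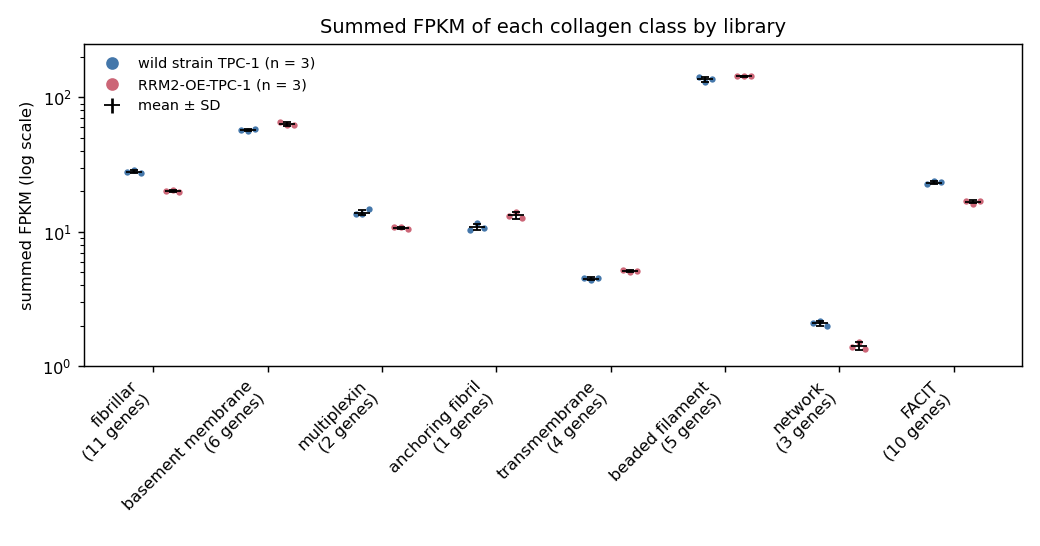
Summed FPKM of the 8 named collagen classes on a log axis, with 1 point per library (wild strain TPC-1 in blue, *RRM2*-OE-TPC-1 in red, n = 3 each) and bars for mean ± SD. The fibrillar sum goes from 28.1 to 20.1 (tested chains *COL27A1*, *COL5A1*, *COL1A1* and *COL5A2*) and the basement membrane sum from 57.6 to 63.5.

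Markers of matrix-making fibroblasts were mostly at or near 0: *DCN* and *DPT* had 0 reads, *PDGFRA* averaged at most 0.0187 FPKM and *THY1* 0.185, *LUM* had 14 reads in the wild strain and 0 in *RRM2*-OE-TPC-1, and *PDGFRB* had 2.12 and 2.37 FPKM and did not pass (adjusted p = 0.223 from limma). The 6 fibroblast markers summed to 2.12 to 2.60 FPKM in the wild strain and 2.43 to 2.65 in *RRM2*-OE-TPC-1, with overlap. Of 4 endothelial markers *PECAM1* had 0.924 and 0.0588 FPKM and was called lower, but it passed the minimum through wild strain libraries alone, and its log2 fold change was −2.71, or −0.86 with a pseudocount of 1, while *KDR* had 0 reads and *CDH5* and *VWF* at most 0.0400 FPKM. Of 5 epithelial markers *KRT18* was called higher (41.2 and 85.2 FPKM, log2 fold change 1.05, and 0.99 with library totals as the scale) and *KRT8* rose (2.56 and 3.48 FPKM), while *EPCAM*, *CDH1* and *KRT19* reached at most 0.125 FPKM. The part of the cell states that these markers stand for in the collagen values was not tested.

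Collagen chains are hydroxylated and glycosylated in the endoplasmic reticulum, folded with the help of dedicated chaperones, exported in large carriers, trimmed of their propeptides outside the cell and cross-linked. Of 36 genes of these steps 32 were tested, of which 15 rose (34.9% of all genes tested did), 9 fell (32.7%) and 8 did not pass, with a median log2 fold change of 0.16. The called genes were 2, both lower (6.97% of all genes tested were called lower). The largest rise, that of *P4HA2*, a prolyl hydroxylase subunit, was just short of a call (2.88 and 5.86 FPKM, log2 fold change 0.99, adjusted p = 6.98e-05 from limma). *LOXL1*, a lysyl oxidase that cross-links elastin and collagen, had 32.3, 28.0 and 29.4 FPKM in the wild strain and 13.6, 13.98 and 14.8 in *RRM2*-OE-TPC-1 (log2 fold change −1.08, SE 0.06, adjusted p = 1.79e-06 from limma). *MIA2*, a cargo receptor at the sites where procollagen leaves the endoplasmic reticulum, had 5.88, 6.60 and 5.76 FPKM and 2.91, 2.53 and 3.10 (log2 fold change −1.07, SE 0.09, adjusted p = 2.00e-05 from limma). *MIA2* was short of a log2 fold change of 1 with a pseudocount of 1 (−0.88) and without *RRM2*-OE-TPC-1 replicate 2 (−0.99).

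The counts by step rest on few genes each and are a description with no test, to be read beside the 34.9% of all tested genes that rose and the 32.7% that fell. Of 5 tested genes of lysyl hydroxylation and glycosylation 4 rose and 0 fell, and their summed level was 145 ± 4.91 FPKM in the wild strain and 209 ± 2.92 in *RRM2*-OE-TPC-1. Of 6 tested genes of propeptide cleavage 4 rose and 0 fell, and of 9 of prolyl hydroxylation 4 rose and 3 fell. Of 8 listed under folding and export 3 rose and 4 fell. That list includes *TMEM38B*, which rose, and *CREB3L1*, which fell, and neither is itself a chaperone or an export factor. Of 4 of cross-linking 0 rose and 2 fell. Of the genes that were not called, the most abundant were *FKBP10*, *P4HB* and *LOXL2*. *FKBP10*, a chaperone of procollagen, fell from 153.9 to 78.1 FPKM (log2 fold change −0.98, adjusted p = 1.28e-07 from limma), and with library totals as the scale it was called (−1.04). *P4HB*, the shared subunit of the prolyl hydroxylases, rose from 91.1 to 107 FPKM (log2 fold change 0.23, adjusted p = 9.88e-04 from limma), and *LOXL2*, a cross-linking oxidase, had 91.9 and 91.0 FPKM and did not pass (adjusted p = 0.802 from limma).

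**Figure D5:**
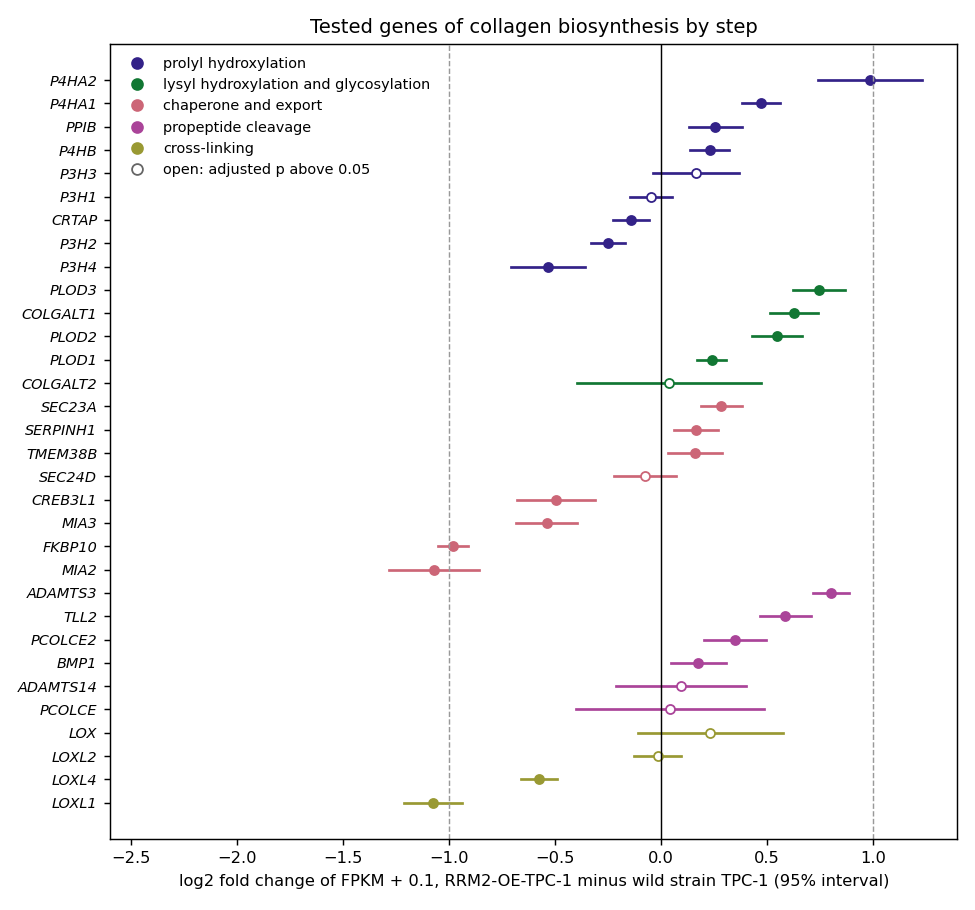
Log2 fold change of FPKM + 0.1 (*RRM2*-OE-TPC-1 minus wild strain TPC-1, 3 libraries each) with 95% intervals from limma for the 32 tested genes of collagen biosynthesis, grouped and coloured by step. Open points did not pass the adjusted p, dashed lines mark a log2 fold change of 1, and *LOXL1* at −1.08 and *MIA2* at −1.07 are the 2 genes beyond them.

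Of 10 collagen receptors 6 were tested, of which 2 rose (34.9% of all genes tested did) and 4 fell (32.7%). Their median log2 fold change was −0.71 (0.01 for all genes tested), a description over few genes with no test. The called ones were 2, both lower (11.5% of all genes tested were called, 6.97% lower). *DDR2*, a receptor tyrosine kinase for fibrillar collagen, had 1.93, 2.14 and 2.29 FPKM in the wild strain and 0.5996, 0.707 and 0.620 in *RRM2*-OE-TPC-1 (log2 fold change −1.58, SE 0.12, adjusted p = 1.12e-05 from limma), and its log2 fold change was −0.93 with a pseudocount of 1. *MRC2*, which takes up collagen for breakdown, had 40.2, 37.0 and 39.1 FPKM and 15.6, 15.3 and 15.1 (log2 fold change −1.33, SE 0.04, adjusted p = 1.12e-07 from limma). Of those not called, *ITGB1*, the beta chain shared by the collagen-binding integrins, rose from 167 to 242 FPKM and *ITGA2* from 3.55 to 5.35, whereas *DDR1* fell from 5.42 to 3.66.

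Of 8 collagen-degrading proteases 4 were tested, and 2 were called in opposite directions (11.5% of all genes tested were called). *MMP2*, a gelatinase that also cuts collagen IV, had 87.3, 87.2 and 85.3 FPKM in the wild strain and 15.0, 14.6 and 14.8 in *RRM2*-OE-TPC-1 (log2 fold change −2.54, SE 0.03, adjusted p = 2.91e-09 from limma). *MMP1*, the interstitial collagenase that cuts fibrillar collagen, had 0.152, 0.121 and 0.414 FPKM and 1.30, 1.13 and 1.24 (log2 fold change 2.11, SE 0.31, adjusted p = 4.40e-04 from limma). *MMP1* rested on 22 and 114 reads, passed the minimum through *RRM2*-OE-TPC-1 libraries alone, and had a log2 fold change of 0.86 with a pseudocount of 1. The membrane-bound *MMP14* had 80.9 and 85.4 FPKM and did not pass (adjusted p = 0.0999 from limma), and *CTSK*, a lysosomal protease, fell from 3.61 to 2.42 FPKM.

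Of 8 small proteoglycans that bind collagen fibrils only *BGN*, the gene of biglycan, was tested. It had 7.62, 7.20 and 6.65 FPKM in the wild strain and 2.54, 2.76 and 2.81 in *RRM2*-OE-TPC-1, and it was called lower (log2 fold change −1.37, SE 0.07, adjusted p = 1.69e-06 from limma). *DCN*, *FMOD* and *KERA* had 0 reads in all 6 libraries.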

How the data were processed

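The authors deposited FPKM values, which they made from fastp-cleaned reads by HISAT2 alignment and featureCounts, with normalization for gene length and sequencing depth. The submitters' processing notes name HISAT2 2.0.5, featureCounts 1.5.0, DESeq2 1.20.0 and the build GRCh38.p14. Strand use in counting is not stated. The methods describe poly(A) selection, whereas rRNA depletion and an RNase R step stand in the labels. Which preparation the libraries had is not settled by the sources, and the word mRNA is used here after the methods. All 44 members had the position and strand of GENCODE 29. All FPKM values, times gene length, were whole reads within 0.01 read, which gave the reads quoted. Intervals and floors cover counting error only where they come from reads.

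limma 3.58.1 in R 4.3.3 (lmFit, eBayes with a variance trend) was run on log2(FPKM + 0.1) over all genes with at least 0.5 FPKM and 10 reads in at least 3 of 6 libraries, and checked on simulated data. A fold change on this scale understates that of low genes. Alternatives were other pseudocounts, filters and scalings, the replicate number as a block, voom on recovered reads, protein-coding genes only and each library left out in turn. *RRM2*, every chain, the called genes of each list and up to 3 uncalled genes of highest mean FPKM per list were named, together with markers. *P4HA2* was named in addition, after values were seen, as the largest rise of the biosynthesis list. The members and lists were chosen with earlier results of these data known. Class sums, ratios and motif counts are descriptions. Python 3.11.15 with pandas 2.3.3 and matplotlib 3.10.9 was used for the rest. A marker of the lists is not reported here.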

Additional observations from a re-analysis of the deposited data

How the results depend on the processing

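Over 15 alternatives, 258 of 269 values of single chains kept their direction and their side of the adjusted p threshold, 7 no longer passed, 4 newly passed and 0 reversed. *COL9A2* was called in all 15. The number of chains called was 2, with 1 of them higher, with a pseudocount of 0.01, with no filter on low values and with voom on recovered reads. The median log2 fold change of the tested chains was −0.080 with no filter, where 38 chains were tested, and −0.26 with library totals as the scale. With a pseudocount of 1, 716 genes were called among all tested and 1 among the biosynthesis genes (3 with a pseudocount of 0.01, library totals, voom or without wild strain replicate 3). The filter on mean FPKM left 17 chains tested, without *COL5A2*. Same-numbered libraries of the groups did not deviate together (correlations −0.0105, −0.00602 and −0.0550), so that the numbers were not taken as pairs. With the replicate block 1566 genes and 1 chain were called, the median was −0.21, and *COL4A4* did not pass (adjusted p = 0.0511 from limma), while no other tested chain changed sides. The same alternatives, added after seeing the data for 22 named genes, *RRM2* and genes of the lists, moved 0 of 329 values across the threshold, and 3 reversed, all of *LOXL2*, which did not pass and ranged from −0.054 to 0.0095 over the libraries left out. The class sums with library totals were also added after seeing the data. The ratios of *COL4A1* to *COL4A5*, *COL4A5* to *COL4A4* and *COL4A4* to *COL4A3* were not among the planned ratios. For the 10 untested chains with at most 10 reads in all, a difference was not detectable at this depth.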
